A study of Mus musculus with 9 samples.

Results

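The hypertrophic layer of the growth plate was compared with the flat layer next to it, in the proximal tibia of newborn mice. The comparison takes in 6 of the 9 arrays of the study, 3 hypertrophic and 3 flat, paired by litter, and covers all genes measured, of which 11313 of 18193 had enough signal to be tested. All animals were wild-type Black Swiss mice at age 0 days, with no treatment, and the other group of the study is the round layer, whose 3 arrays entered the fit, the choice of probe sets and the tissue scores and are not otherwise described, apart from a few summed signals. Each array carried RNA of 18 to 20 tibiae pooled from 1 litter of 9 to 10 pups, so that n = 3 litters, and the replicates are separate litters. Each layer was cut out by hand on frozen sections, and cells were neither sorted nor marked by type. The labels give no sex. RNA of marrow, vessels, muscle and the fibrous sheath could therefore enter each sample, and in such bulk samples fewer cells of a type and less RNA per cell cannot be told apart.

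A growth plate lengthens a bone by turning out chondrocytes in an ordered column. Flat chondrocytes divide, stack along the axis of the bone and lay down a matrix of type II collagen and aggrecan. They then leave the cell cycle, pass a prehypertrophic stage marked by Indian hedgehog and the receptor for parathyroid hormone, and swell into hypertrophic cells that make type X collagen. The last of these mineralise their matrix and degrade its cross walls. Vessels, osteoclasts and osteoblasts enter at that front, which lies against the hypertrophic layer. The flat layer is flanked along its length by perichondrium, tendon and muscle.

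Values are MAS5 signals, a brightness in arbitrary units whose size does not rank different genes. A gene was called where limma's adjusted p was under 0.05, and a gene is said to have risen, fallen or changed only if it was called, always going from the flat to the hypertrophic layer. Differences are on the scale of log2(signal + 26) with their standard error. Of the tested genes 692 rose (6.12% of all tested) and 591 fell (5.22%), together 11.3%, and every one of them moved the same way in the 3 litters. Counts of list members given below are to be read against these shares. The lists were chosen with earlier results of these data known, so their counts are descriptions and not tests. At least 2-fold changes made up 245 of the rises and 236 of the falls, and at least 4-fold changes 30 and 7. The median difference over all tested genes was -0.005. On 1504 genes (13.3%) the hypertrophic values all lay above the flat values, and on 1067 (9.43%) all lay below. Without the block for litter 356 genes rose and 197 fell. After median centring of the arrays the split was 838 to 448, that is 65.2% of calls higher in place of 53.9%. Leaving out together the round library of litter 1, apart in RNA integrity, and the flat library of litter 3, apart in muscle signal, gave 838 rises and 768 falls. With 1 array left out, 256 rises and 192 falls were called in each of the 9 omissions, and a gene said below to have risen or fallen is among these unless stated otherwise. The counts fell to 336 and 255 without the hypertrophic array of litter 1, to 350 and 342 without that of litter 2, to 358 and 374 without that of litter 3, and to 397 and 301 without the flat array of litter 1. Median signals were 123 to 152 over the 9 arrays, and precision is limited by there being 3 litters. The 3'/5' signal ratio of actin, a measure of RNA integrity, was 1.45 to 2.06 on the 6 arrays compared and 4.25 on the round array of litter 1.

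The type X collagen gene Col10a1, the defining transcript of hypertrophic chondrocytes, showed the largest rise of all. Its signal was 470.1, 931 and 590.3 in the flat layer of litters 1, 2 and 3, and 11228, 12910.0 and 11432 in the hypertrophic layer. Every hypertrophic value was far above every flat value, and the hypertrophic arrays were close to each other. The difference was 4.16 ± 0.36 on the log2 scale, 17.9-fold, with adjusted p = 3.11e-05. Mmp13, a collagenase of the last hypertrophic cells and of osteoblasts, was already bright in the flat layer at 12279, 8977 and 8389 and stood at 34750.0, 37012 and 32723 in the hypertrophic layer. The groups did not overlap, and the rise was 1.83 ± 0.20 (adjusted p = 0.000133). The flat samples thus were not free of this transcript.

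The promoters of Col10a1 and Mmp13, of Cemip, whose rise is given below, and of Ucma, which fell, are shown as examples of called genes. They were picked because their windows hold letters that were searched for in all promoters, so their having matches is not a result. They come from RefSeq on build GRCm38.p6, run 5′ to 3′ on the gene's own strand from 250 bases before to 50 after the annotated start, and matches are in capitals. Col10a1 lies at chr10:34389731-34390030 on the plus strand, Mmp13 at chr9:7272264-7272563 on the plus strand, Cemip at chr7:84086456-84086755 on the minus strand and Ucma at chr2:4975872-4976171 on the plus strand.
Col10a1: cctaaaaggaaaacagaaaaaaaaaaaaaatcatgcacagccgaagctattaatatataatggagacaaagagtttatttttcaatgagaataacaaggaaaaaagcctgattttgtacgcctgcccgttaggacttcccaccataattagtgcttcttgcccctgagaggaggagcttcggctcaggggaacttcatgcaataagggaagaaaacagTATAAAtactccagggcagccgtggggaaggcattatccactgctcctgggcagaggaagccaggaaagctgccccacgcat
Mmp13: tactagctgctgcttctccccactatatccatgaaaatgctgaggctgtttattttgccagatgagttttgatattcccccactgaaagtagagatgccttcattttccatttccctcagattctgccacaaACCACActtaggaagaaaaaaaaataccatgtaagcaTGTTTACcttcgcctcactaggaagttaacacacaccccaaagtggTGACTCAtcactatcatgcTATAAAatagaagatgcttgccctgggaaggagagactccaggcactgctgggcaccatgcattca
Cemip: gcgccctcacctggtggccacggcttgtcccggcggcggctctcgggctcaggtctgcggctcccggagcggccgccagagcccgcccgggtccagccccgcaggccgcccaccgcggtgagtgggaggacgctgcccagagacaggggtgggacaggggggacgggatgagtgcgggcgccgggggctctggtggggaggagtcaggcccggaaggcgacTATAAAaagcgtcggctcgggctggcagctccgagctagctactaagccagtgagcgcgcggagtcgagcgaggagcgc
Ucma: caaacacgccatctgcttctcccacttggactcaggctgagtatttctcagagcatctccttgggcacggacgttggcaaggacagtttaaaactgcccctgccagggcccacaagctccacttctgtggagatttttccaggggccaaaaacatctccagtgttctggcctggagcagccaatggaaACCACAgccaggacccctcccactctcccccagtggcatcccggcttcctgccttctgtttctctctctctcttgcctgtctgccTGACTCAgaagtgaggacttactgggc

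In the Col10a1 window the only match was the TATA box letters TATAAA, at bases -32 to -27 from the start, and in Cemip they stood at -29 to -24. Mmp13 held a RUNX core (TGTGGT, read on the opposite strand) at -118 to -113, a forkhead motif (TGTTTAC) at -81 to -75, an AP-1 motif (TGANTCA) at -35 to -29 and TATAAA at -16 to -11. Ucma held a RUNX core on the opposite strand at -62 to -57 and an AP-1 motif at 24 to 30 after the start. Both strands were searched, and 9149 of the 11313 tested genes had a window. TATAAA was found in 7.03% of all those windows, in 10.7% of the 525 windows of genes that rose and in 13.5% of the 465 of genes that fell. The AP-1 letters were in 4.65% of all windows, in 6.67% of the rises and in 6.02% of the falls. A MEF2-like motif (CTATTTA) was in 1.89% of all windows, 2.10% of the rises and 5.16% of the falls, and the RUNX core in 11.9%, 11.6% and 13.5%. The forkhead letters were in 2.38%, 2.10% and 2.80%, and the E2F letters (GCGGGAA) in 8.69%, 5.71% and 4.95%. TATAAA and CTATTTA can overlap in 1 stretch of A and T. These shares describe letters in a window, not binding.

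**Figure D1:**
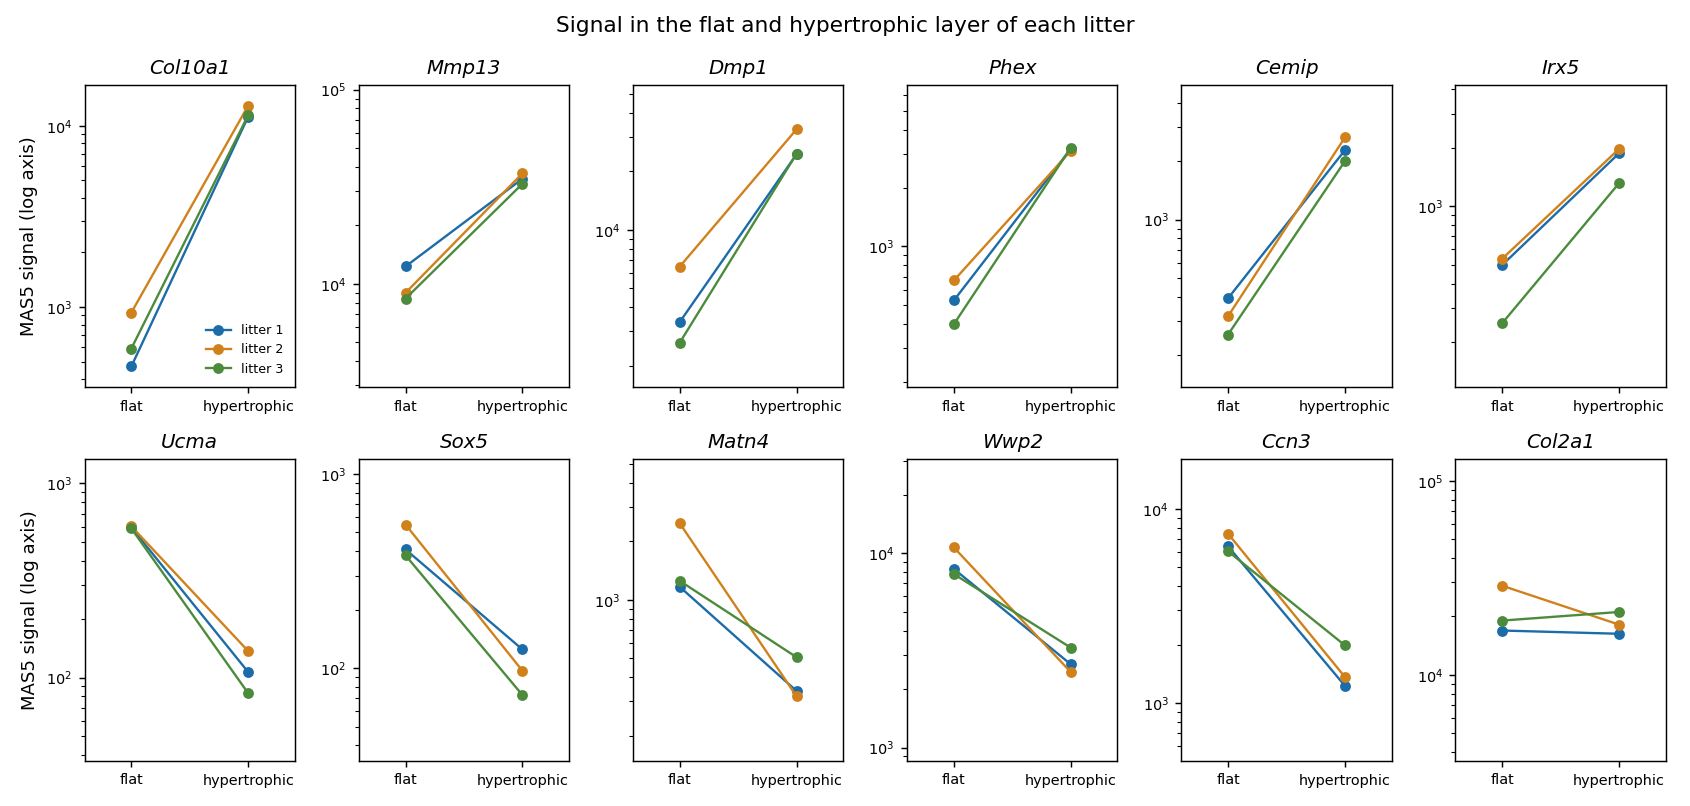
MAS5 signal on a log axis, 1 panel per gene, for the flat and the hypertrophic array of each litter, joined by a line per litter. Col10a1, Mmp13, Dmp1, Phex, Cemip and Irx5 are higher in the hypertrophic layer in every litter, Ucma, Sox5, Matn4, Wwp2 and Ccn3 are lower, and the Col2a1 values of the layers overlap.

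Genes of mineralised matrix rose with Col10a1. Of 9 tested genes on the list of bone and mineralised matrix genes, 6 rose and 0 fell, with a median difference of 0.935 (all tested genes -0.005). Dmp1, an acidic phosphoprotein that binds calcium and collagen, went from 3347, 6461 and 2619 to 24500.0, 32939 and 24643. The values did not overlap, and the difference was 2.81 ± 0.22, 7.01-fold, with adjusted p = 1.89e-05. Phex, a surface peptidase whose loss causes phosphate wasting, had 528, 668 and 398 in the flat and 3181, 3106 and 3219 in the hypertrophic layer. Its hypertrophic values were nearly equal across litters, all above the flat ones, and it rose by 2.55 ± 0.19 (adjusted p = 1.74e-05). Fam20c, the kinase that phosphorylates secreted matrix proteins, rose by 1.84 ± 0.15, Ifitm5, a membrane protein of mineralising cells, by 1.29 ± 0.24 and Omd, a keratan sulfate proteoglycan of bone, by 0.90 ± 0.16. Ibsp, bone sialoprotein, was 0.94 ± 0.26 higher (adjusted p = 0.0356), and the call was lost without either the flat array of litter 2 or 3 or any hypertrophic array (adjusted p up to 0.176, without the flat array of litter 3).

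Several of these genes also mark osteoblasts, which the front of the hypertrophic layer can hold. The osteoblast list had 6 of 11 tested members higher and 1 lower, and 5 of the 6 are on the mineralised matrix list too. The collagen I genes, the most abundant products of osteoblasts and fibroblasts, had no difference past the threshold. Col1a1 read 79711, 91963 and 61053 in the flat and 68908, 71968 and 65572 in the hypertrophic layer, a difference of -0.15 ± 0.15 (adjusted p = 0.608). Col1a2 differed by -0.21 ± 0.17 (adjusted p = 0.502), its layers overlapped as well, and the sign of both genes turned under quantile normalisation. Summed over the osteoblast list, Col1a1 and Col1a2 included, flat samples had 146719 to 250909 and hypertrophic samples 216264 to 251956. The brightest genes weigh most in such sums, here and below, and the sums do not measure the amount of a cell type. The part of osteoblasts in the rise of Dmp1, Phex, Ifitm5 and Omd was not tested.

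Of 11 tested genes of mineralisation and phosphate handling 5 rose and 0 fell, with a median of 0.506. Ank, which exports pyrophosphate and so restrains crystal growth, rose from 789, 1062 and 764 to 1925, 3057 and 2151, without overlap (1.41 ± 0.16, adjusted p = 0.000205). Smpd3, a sphingomyelinase needed for mineralisation, rose by 1.19 ± 0.20 and Slc13a5, a citrate carrier, by 1.65 ± 0.25. Alpl, the alkaline phosphatase that removes pyrophosphate, rose by 0.75 ± 0.16 (adjusted p = 0.0102), a call lost without the flat array of litter 1 or 3 or the hypertrophic array of litter 3 (adjusted p up to 0.0878, without the last of these). Slc37a2, the fifth, is an osteoclast gene as well and is given with those below.

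Of the 12 tested hypertrophic markers 7 rose and 1 fell, with a median of 0.764. Besides Col10a1, Mmp13, Dmp1, Ibsp and Alpl, the channel gene Panx3 was 1.19 ± 0.25 and the ligand gene Bmp6 0.77 ± 0.19 higher. Panx3 lost its call without the hypertrophic array of litter 1 or 3 (adjusted p up to 0.0688), and Bmp6 without the flat array of litter 2 or 3 or the hypertrophic array of litter 1 or 2 (up to 0.149). The count was 4 without the flat array of litter 3 or the hypertrophic array of litter 1 or 3. Cdkn1c, an inhibitor of cyclin-dependent kinases that was on the list as a hypertrophic marker, fell, from 24623, 27860.0 and 32787 to 14089, 18012 and 18896 with no overlap (-0.74 ± 0.14, adjusted p = 0.00405). With the muscle score described below as a covariate Cdkn1c stood at -0.31 ± 0.18 and was not called (adjusted p = 0.411). Vegfa, which draws vessels to the front, was not past the threshold (0.41 ± 0.23, adjusted p = 0.319).

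Of 11 tested prehypertrophic markers 5 were higher and 0 lower, with a median of 0.564. Wnt4, a ligand of prehypertrophic chondrocytes, had 964, 604 and 706 in the flat layer and 1782, 1586 and 1737 in the hypertrophic layer. All hypertrophic values were higher, by 1.16 ± 0.22 (adjusted p = 0.0057). Pth1r, the receptor for parathyroid hormone and PTHrP, was 0.70 ± 0.17 higher with adjusted p = 0.0171, and Fgfr1 0.56 ± 0.12 higher with adjusted p = 0.00869. Pth1r lost its call without the flat array of litter 3 or the hypertrophic array of litter 1 or 3 (adjusted p up to 0.134), and Fgfr1 without the hypertrophic array of litter 2 or 3 (up to 0.0744). Sp7, the factor that drives mineralising cells, stayed just outside the threshold (0.74 ± 0.23, adjusted p = 0.0544), and Ihh had too little signal to be tested. The count of 5 was 2 without the hypertrophic array of litter 1 or 3 and 3 without the flat array of litter 3 or the hypertrophic array of litter 2.

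Among proteases and their inhibitors 6 of 19 rose and 0 fell, with a median of 0.391. Mmp9, the gelatinase of osteoclasts and vessel fronts, is given with the osteoclast genes. Timp1, a secreted inhibitor of matrix metalloproteinases, rose from 3692, 4005 and 2235 to 8662, 8980.4 and 7239 (1.36 ± 0.17, adjusted p = 0.000301), and the groups did not overlap. Mmp16, a membrane-bound metalloproteinase, rose by 1.07 ± 0.18. Mmp14 was 0.58 ± 0.12 higher, with adjusted p = 0.00753 and 0.0685 without the hypertrophic array of litter 3.

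The largest rises outside the marker lists included genes with a role in hyaluronan, prostaglandin and vitamin D handling. Cemip, which takes part in hyaluronan breakdown, went from 394, 318 and 256 to 2280.0, 2651 and 2002. The layers were far apart in each litter, and the rise was 2.75 ± 0.18, 6.75-fold (adjusted p = 5.92e-06). Hpgd, which inactivates prostaglandins, had 587, 725 and 833 in the flat and 2969, 4199 and 3008 in the hypertrophic layer, a rise of 2.20 ± 0.19. Vdr, the vitamin D receptor, had 423, 597 and 489 and 1974, 2202 and 1921, again without overlap, a rise of 1.97 ± 0.17. Ccn5, a matricellular protein, was near the pseudocount of 26 in the flat samples of litters 2 and 3 (123, 39.4 and 35.9) and read 474, 819 and 429.7 in the hypertrophic layer, a rise of 2.77 ± 0.37. Gzme, a granzyme, rose by 2.88 ± 0.32 from 87.2, 158 and 44.4 to 806, 1071 and 623. Others in this set were Ptprz1, a receptor phosphatase (2.06 ± 0.18), Loxl4, a lysyl oxidase that cross-links collagen (2.15 ± 0.25), Col22a1, a collagen of tissue junctions (1.80 ± 0.16), Cp, the copper-binding ferroxidase ceruloplasmin (1.92 ± 0.19), Slc36a2, an amino acid carrier (1.95 ± 0.24), Shtn1 (2.30 ± 0.23) and Fam167b (2.70 ± 0.37). Lat, an adaptor of T cell and mast cell receptors, was 2.73 ± 0.52 higher, with adjusted p = 0.0054 and 0.0556 without the hypertrophic array of litter 1. Col22a1 and Cp were picked out after their values were seen.

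Of 14 tested flat columnar chondrocyte markers 6 fell, 0 rose and 8 did not pass the threshold (median -0.517). Of 18 tested resting and joint-side markers 6 fell, 1 rose and 11 did not pass (median -0.478). Ucma, a Gla-rich matrix protein of resting and upper columnar cartilage, was almost the same in the flat layer of each litter, 593, 601 and 586, and dropped to 107, 137 and 83.1 in the hypertrophic layer. No value of either layer reached the other, and the fall was -2.22 ± 0.18, 4.66-fold, with adjusted p = 2.23e-05. Sox5, a partner of Sox9 in activating cartilage matrix genes, had 409, 549 and 381 in the flat and 125, 97.0 and 72.8 in the hypertrophic layer. It fell in every litter, by 1.93 ± 0.20 (adjusted p = 9.12e-05). Sox9 itself read 721, 929 and 385 and 278, 431 and 239, layers that overlapped in the flat array of litter 3, and was 0.998 ± 0.20 lower with adjusted p = 0.00683, which was 0.0528 without the flat array of litter 1 and also missed the threshold without the hypertrophic array of litter 1. Cytl1, a secreted cartilage protein, fell by 1.79 ± 0.29 and Abi3bp, a matrix protein, by 1.47 ± 0.13. Prg4, lubricin of the joint surface, was low and not past the threshold (-0.69 ± 0.27, adjusted p = 0.134). Wif1, a secreted Wnt inhibitor, was the list member that rose, from 1179.9, 789 and 575 to 2443, 2093 and 1858 (1.35 ± 0.23, adjusted p = 0.0023). The 6 falls among resting markers were 3 without the flat or the hypertrophic array of litter 2.

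Of 27 tested cartilage matrix genes 15 fell, 1 rose and 11 did not pass the threshold, with a median of -0.689. Type II collagen, Col2a1, had 16927, 28783 and 19046 in the flat layer and 16288, 18157 and 21097 in the hypertrophic layer. The layers overlapped, with the flat array of litter 2 highest, and the difference was -0.19 ± 0.17 (adjusted p = 0.548). Aggrecan, Acan, had 6279.9, 10297 and 6107 and 6758, 7050.4 and 7608, a difference of -0.04 ± 0.16 (adjusted p = 0.919), whose sign turned without the array of either layer of litter 2 and under median centring. The matrilin Matn4 fell from 1169, 2484 and 1254 to 339.7, 319 and 507, without overlap (-1.95 ± 0.23, adjusted p = 0.000276). Chains of the fibril-associated collagen IX fell, Col9a2 by 1.35 ± 0.16 and Col9a3 by 1.20 ± 0.15, as did the fibrillar collagen Col27a1 by 1.41 ± 0.16. The small leucine-rich proteoglycans Fmod, Epyc and Prelp fell by 1.56 ± 0.19, 1.51 ± 0.25 and 1.36 ± 0.17. Matn1, Mia, Cilp2 and Ecrg4 fell by 1.15 ± 0.19, 1.34 ± 0.16, 1.31 ± 0.21 and 1.86 ± 0.13. The list member that rose, Col11a2, a chain of collagen XI, was 0.65 ± 0.19 higher with adjusted p = 0.0422, and its call was lost without any hypertrophic array, the flat array of litter 1 or 3, or the round array of litter 2 (adjusted p up to 0.208).

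Other large falls included Wwp2, a ubiquitin ligase that Sox9 activates in cartilage, which went from 8315, 10724 and 7819.9 to 2684, 2446 and 3268. The layers were well apart, and the fall was -1.66 ± 0.16 (adjusted p = 7.8e-05). Ccn3, a matricellular protein, went from 6407, 7442 and 6042 to 1226, 1361 and 1981, a fall of -2.13 ± 0.16, 4.37-fold, with adjusted p = 1.66e-05. Its relative Ccn5 moved the opposite way, as given above. Cpxm2, a carboxypeptidase-like protein, fell from 1366, 1417 and 653 to 185, 158 and 151 (-2.54 ± 0.20). Penk, the enkephalin precursor, fell by 1.78 ± 0.14, Camk4, a calcium-dependent kinase, by 1.95 ± 0.17, Itgbl1, a secreted integrin-like protein, by 1.98 ± 0.17, Ltbp2, which binds microfibrils, by 1.76 ± 0.19, Gpc6, a glypican, by 1.602 ± 0.25 and Syne4, a nuclear envelope protein, by 1.73 ± 0.27.

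A further set of large falls differed between litters. Cidea, a lipid droplet protein of brown fat, had 469.6, 332 and 641 in the flat layer and 35.1, 21.4 and 182 in the hypertrophic layer. The hypertrophic values of litters 1 and 2 were near the pseudocount of 26 and that of litter 3 was not. The fall was -2.54 ± 0.46, and -3.16 without the hypertrophic array of litter 3. Dcx, a microtubule protein of young neurons (251, 184 and 455 against 13.9, 20.9 and 186), Hsd11b2, which inactivates glucocorticoids (275, 176 and 313 against 21.8, 14.3 and 186), and Sod3, an extracellular superoxide dismutase (148, 225 and 366 against 9.42, 21.8 and 217), showed the same split by litter. Dcx fell by 2.05 (adjusted p up to 0.0648, without the flat array of litter 1), Hsd11b2 by 1.89 (up to 0.0937, without the flat array of litter 1) and Sod3 by 1.79 (0.0524 without the hypertrophic array of litter 1). Dcx also lost its call without the hypertrophic array of litter 1 or 2, and Hsd11b2 without the flat array of litter 2 or the hypertrophic array of litter 1 or 2. Without the hypertrophic array of litter 3 the falls were -2.65 for Dcx and -2.58 for Hsd11b2. Litter 3 also had the highest muscle marker score in both layers. Of 6 tested adipocyte markers limma called 0 (median -0.547, with 2 at an unadjusted p under 0.05), with a summed signal of 35817 to 56732 in flat samples and 26768 to 36085 in hypertrophic ones. The part of muscle and fat in these values was not tested.

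Of 17 tested osteoclast markers 14 rose and 0 fell, with a median of 1.457, and the count stayed at 14 in each of the 9 omissions and without the litter block. Acp5, tartrate-resistant acid phosphatase, went from 2432, 4051 and 2127 to 23833, 27139 and 19038. All hypertrophic values were above all flat values, and the rise was 3.05 ± 0.23, 8.3-fold, with adjusted p = 1.66e-05. Mmp9 went from 8974, 7533 and 7012 to 50468, 52831 and 41858 (2.62 ± 0.14, adjusted p = 2.36e-06). Itgb3, the integrin chain that anchors the resorbing cell, went from 568, 573 and 524 to 3689, 3990.5 and 2749.9, likewise without overlap (2.58 ± 0.15). The fusion genes Ocstamp and Dcstamp rose by 3.29 ± 0.38 and 2.86 ± 0.37, the proton pump subunit Atp6v0d2 by 2.77 ± 0.25, the sugar phosphate carrier Slc37a2 by 2.64 ± 0.18 and the receptor Oscar by 2.33 ± 0.29. Cathepsin K, Ctsk, the main protease of resorption, rose by 0.92 ± 0.15 (from 4151, 4992 and 2847 to 7486, 8642 and 6203), and carbonic anhydrase Car2 by 1.46 ± 0.22. Tnfrsf11a, the receptor RANK, was not past the threshold (0.57 ± 0.28, adjusted p = 0.24). Summed over the list, flat samples had 22835 to 29114 and hypertrophic samples 90932 to 116948.

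Of 21 tested macrophage markers 9 rose and 1 fell (median 0.378). Cd68, a lysosomal protein of macrophages and osteoclasts, rose by 1.56 ± 0.20, the adaptor Tyrobp by 1.47 ± 0.15, Laptm5 by 1.44 ± 0.14, the pan-leukocyte phosphatase Ptprc by 1.25 ± 0.22 and the growth factor receptor Csf1r by 1.07 ± 0.13. The list member that fell was Mrc1, the mannose receptor, from 2255, 2007 and 2305 to 1002, 1086 and 1119.9 with no overlap (-1.01 ± 0.12, adjusted p = 0.000293), while Adgre1 differed by -0.10 ± 0.17 (adjusted p = 0.767) and C1qa differed by -0.29 ± 0.16 (adjusted p = 0.307). Summed macrophage signal was 21792 to 26489 in flat samples and 33132 to 42856 in hypertrophic ones.

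Of the blood cell markers tested, 2 neutrophil genes were higher and 2 platelet genes lower. All 6 tested erythroid markers missed limma's threshold (median 0.087, with 1 at an unadjusted p under 0.05), among them Alas2, the first enzyme of haem synthesis in red cells (0.31 ± 0.14, adjusted p = 0.18), and their summed signal was 4875 to 5152 in flat samples and 5043 to 6392 in hypertrophic ones. The 3 tested lymphoid markers missed it too (0 at an unadjusted p under 0.05). Among 5 tested neutrophil markers S100a8 and S100a9 were 0.70 ± 0.18 and 0.64 ± 0.19 higher, with adjusted p = 0.0228 and 0.049. Each lost its call in 5 of the 9 omissions (S100a8 without the flat array of litter 2 or 3 or any hypertrophic array, up to 0.122, and S100a9 without any flat array or the hypertrophic array of litter 1 or 3, up to 0.272). Of 3 tested platelet markers Pf4 and Gp1bb were lower, by 0.68 ± 0.14 and 0.87 ± 0.21. Pf4 lost its call without the hypertrophic array of litter 1 (adjusted p = 0.0575), and Gp1bb without the array of either layer of litter 1 or 2 (up to 0.11). Of the 16 neutrophil, 19 erythroid, 14 lymphoid and 11 platelet markers written, 8, 8, 9 and 6 had too little signal to be tested, and the rest had no single-gene probe set under their symbol.

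**Figure D2:**
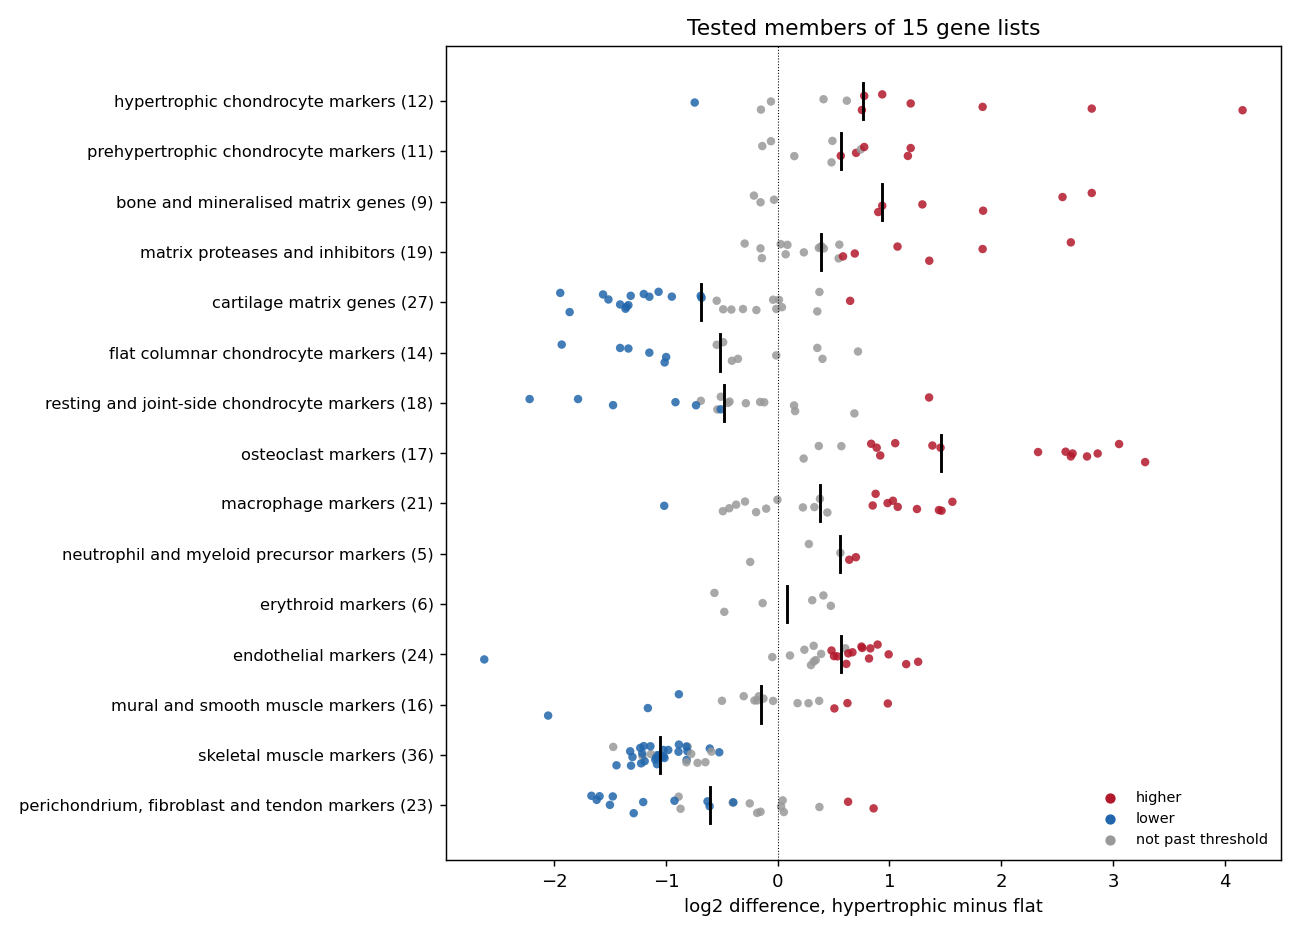
Log2 difference between the hypertrophic and flat layer (x axis) for each tested member of 15 gene lists, 1 point per gene, with the number tested in brackets and a black bar at the median. Osteoclast markers reach from 0.23 to 3.29, and skeletal muscle markers lie between -1.47 and -0.52.

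Vessel genes moved apart from each other. Of 24 tested endothelial markers 14 rose and 1 fell, with a median of 0.569. Cdh5, the cadherin that joins endothelial cells, went from 675, 730.3 and 819 to 1663, 1621 and 1734. The hypertrophic values were all higher and close together, and the rise was 1.15 ± 0.14 (adjusted p = 0.000298). Aplnr, the apelin receptor of growing vessels, rose by 1.26 ± 0.15 from 8044, 9024 and 7339.5 to 21707, 19576 and 17194. Mmrn2, Plvap and Esam, proteins of the endothelial surface, rose by 0.99 ± 0.14, 0.75 ± 0.12 and 0.63 ± 0.12. Vwf, von Willebrand factor, made by endothelium of larger vessels and by megakaryocytes, showed the largest fall of all genes, from 1462, 588 and 749 to 246, 84.6 and 74.4. Each hypertrophic value lay below each flat value, and the fall was -2.62 ± 0.24, 6.17-fold, with adjusted p = 5.23e-05. Summed endothelial signal was 31674 to 35391 in the flat, 52622 to 59925 in the hypertrophic and 42144 to 50445 in the round layer. The 14 rises were 7 without the hypertrophic array of litter 1 or 3, 8 without the flat array of litter 1 and 9 without the hypertrophic array of litter 2.

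Of 16 tested mural and smooth muscle markers 3 rose and 3 fell (median -0.148), and the rises were 1 without the hypertrophic array of litter 3. Myh11, smooth muscle myosin, had 535, 374 and 286 in the flat and 110.3, 26.9 and 109.7 in the hypertrophic layer. The lowest value was that of the hypertrophic array of litter 2, and the fall was -2.05 ± 0.42 (adjusted p = 0.00835), or -1.46 without the flat array of litter 2. Acta2, smooth muscle actin, fell by 0.88 ± 0.13 from 11156, 11116 and 12454 to 5829, 5549 and 7549, and Tagln, transgelin, by 1.16 ± 0.20. Gucy1a1, a nitric oxide receptor subunit of pericytes, rose by 0.99 ± 0.16.

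Skeletal muscle transcripts were lower throughout in the hypertrophic layer. All 36 tested muscle markers had a negative difference (median -1.051), and 27 passed the threshold. Myh8, the perinatal myosin heavy chain, had 35084, 30977 and 60726 in the flat and 8405, 13404 and 29090.0 in the hypertrophic layer. The lowest flat value lay just above the highest hypertrophic value, litter 3 was high in both layers, and the fall within litters was -1.44 ± 0.30 (adjusted p = 0.00869). Ttn, titin, had 19803, 13126 and 36971 and 5639.8, 7162 and 18650.0, with the hypertrophic array of litter 3 above the flat array of litter 2, and fell by 1.22 ± 0.20. Ryr1, the calcium release channel, Actn2 and Neb, parts of the sarcomere, and Casq1, which stores calcium, fell by 1.32 ± 0.24, 1.299 ± 0.25, 1.20 ± 0.19 and 1.31 ± 0.25. Summed signal of the list was 462093 to 792450 in the flat, 195593 to 475465 in the hypertrophic and 193618 to 320967 in the round layer. The 27 falls were 12 without the hypertrophic array of litter 1 and 0 without the litter block. Fgfr4, an FGF receptor of young muscle, was also highest in litter 3 in both layers and is given with its pathway.

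Of 23 tested markers of perichondrium, fibroblasts and tendon 11 fell and 2 rose (median -0.609). Col14a1, a collagen of dense connective tissue, went from 9874, 9093 and 8039 to 2442, 3283 and 3051 with no overlap (-1.62 ± 0.13, adjusted p = 2.75e-05). Tnmd, tenomodulin of tendon cells, fell by 1.59 ± 0.19, the microfibril protein Mfap4 by 1.501 ± 0.14, thrombospondin Thbs4 by 1.48 ± 0.20, the proteoglycan Ogn by 1.20 ± 0.12 and keratocan, Kera, by 1.67 ± 0.22. Of the nerve and skin lists 1 of 5 and 1 of 4 tested members were lower, Ngfr (adjusted p = 0.0228, lost without the array of either layer of litter 1 or 3, up to 0.138) and Krt5 (adjusted p = 0.0169, lost without the array of either layer of litter 1 or 2, up to 0.11). Thy1, a surface protein of stromal cells and young osteoblasts, rose by 0.86 ± 0.14. Fap, a surface protease of activated fibroblasts, was 0.63 ± 0.12 higher (adjusted p = 0.00542), and its adjusted p reached 0.05 without the hypertrophic array of litter 1. Summed signal was 212832 to 267993 in flat samples and 170953 to 193452 in hypertrophic ones. The 11 falls were 6 without the flat array of litter 1 and 7 without the flat array of litter 3 or the hypertrophic array of litter 1 or 3.

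To set chondrocyte changes apart from these tissues, a score was made for each array from the markers of skeletal muscle, of marrow and of vessels. It was the mean log2 deviation of the tested markers from their average over the 9 arrays. The marrow score pooled the macrophage, osteoclast, neutrophil, erythroid and platelet lists, whose median differences were unlike (0.378, 1.457, 0.56, 0.087 and -0.68). The vessel score pooled the endothelial list (median 0.569) and the mural list (-0.148). The muscle score was 0.41, 0.39 and 1.59 in the flat layer of litters 1 to 3 and -0.94, -0.34 and 0.61 in the hypertrophic layer. The marrow score was 0.08, -0.18 and -0.24 in the flat and 0.78, 0.63 and 0.55 in the hypertrophic layer, and the vessel score -0.11, -0.07 and -0.22 against 0.16, 0.02 and 0.04. The R² of a model with layer and litter alone was 0.982 for the marrow score, 0.872 for the vessel score and 0.882 for the muscle score. With the marrow score as a covariate the median standard error rose from 0.179 to 0.817, and limma called 0 genes higher and 0 lower (788 at an unadjusted p under 0.05). With the vessel score it was 0.403, and 17 rose and 19 fell. Marrow and layer, and largely vessel and layer, therefore cannot be told apart by these fits.

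**Figure D3:**
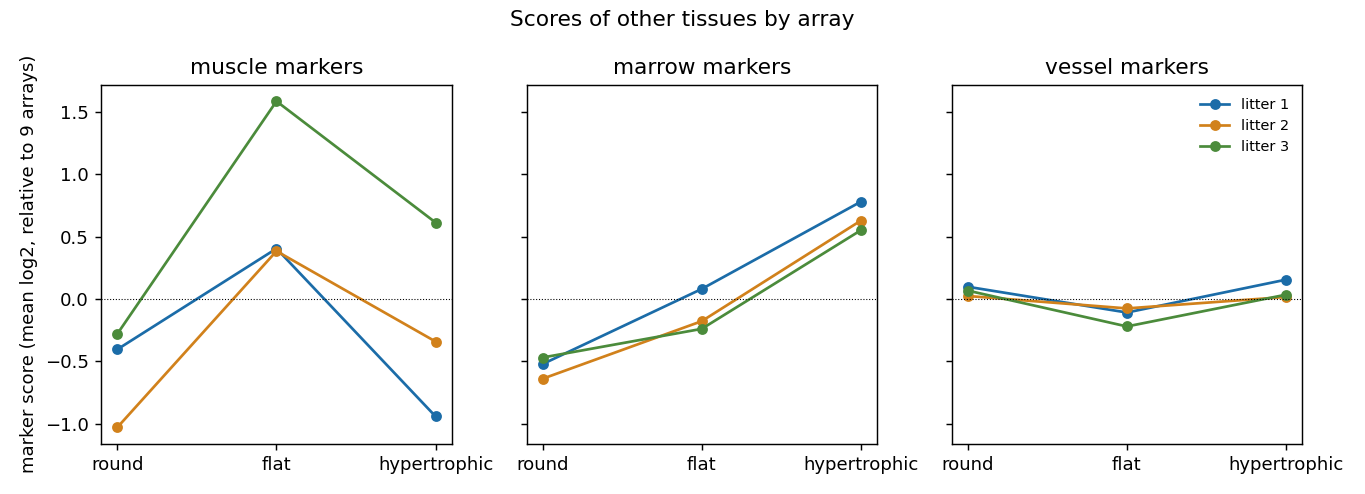
Score of each array for skeletal muscle, marrow (osteoclast markers included) and vessel markers (mean log2 relative to the 9 arrays, y axis) by layer, joined by litter. The flat array of litter 3 has the highest muscle score (1.59), and the hypertrophic arrays have the highest marrow scores (0.55 to 0.78).

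The muscle score left more to compare, although its R² on layer and litter (0.882) was close to that of the vessel score (0.872). With it as a covariate 144 genes rose and 150 fell at a median standard error of 0.301, and 117 of the 692 rises and 109 of the 591 falls were called again. The sign was kept by 684 of the rises, whose median went from 0.824 to 0.760, and by 552 of the falls, whose median went from -0.918 to -0.634. Of the 36 tested muscle markers 0 were called in this fit by limma (2 at an unadjusted p under 0.05). These markers make up the score, so their loss of calls was built into the fit. Col10a1 stood at 2.41 ± 0.27 with the covariate (adjusted p = 0.0014), lower than without it, Dmp1 at 2.21 ± 0.34 (adjusted p = 0.00523) and Phex at 2.41 ± 0.35 (adjusted p = 0.00362). Ucma stood at -2.36 ± 0.33 (adjusted p = 0.0032), Sox5 at -2.25 ± 0.35 (adjusted p = 0.00604), Wwp2 at -2.12 ± 0.24 (adjusted p = 0.00156) and Vwf at -3.29 ± 0.40 (adjusted p = 0.00159). Ibsp, at -0.06 ± 0.32 (adjusted p = 0.951), and Cidea, at -0.87 ± 0.63 (adjusted p = 0.531), no longer passed. Of the 164 called genes named here, 83 were called again, 78 were not but kept their sign, and 3 changed sign. Among those not called were Panx3 (0.44 ± 0.36), Wif1 (0.59 ± 0.31), Hhip (0.30 ± 0.43), Sox9 (-1.13 ± 0.36), Alpl (0.80 ± 0.28), Smpd3 (1.07 ± 0.35) and, with adjusted p = 0.0805 and 0.101, the osteoclast genes Ocstamp and Dcstamp.

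List counts fell with this covariate as well. A call could be lost through a smaller estimate or through the wider standard error (median 0.301 in place of 0.179), and the counts do not tell these apart. The part of muscle RNA in the lost calls was not tested. Hypertrophic markers called higher went from 7 to 3, prehypertrophic markers from 5 to 1, mineralised matrix genes from 6 to 3, phosphate genes from 5 to 2, proteases and inhibitors from 6 to 3, osteoclast markers from 14 to 8, macrophage markers from 9 to 4 and endothelial markers from 14 to 4. Genes called lower went from 15 to 11 in cartilage matrix, from 6 to 3 among columnar and among resting markers and from 11 to 7 in fibrous tissue. In the pathway lists, rises went from 6 to 1 for Wnt, from 8 to 2 for BMP and TGF-beta and from 8 to 0 for hypoxia and glycolysis, and falls from 8 to 5, from 11 to 6 and from 1 to 0. The falls of the IGF list went from 6 to 1.

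Genes on no list of another cell type that were called in this fit too numbered 99 rises and 101 falls. The 15 largest rises among them were Col10a1, Gzme, Ccn5, Cemip, Cd84, Shtn1, Hpgd, Gpr137b, Loxl4, Ccl9, Ptprz1, Ckb, Irx5, Vdr and Slc36a2. The 15 largest falls were Cpxm2, Ucma, Ccn3, Itgbl1, Camk4, Matn4, Sox5, Ecrg4, Cytl1, Penk, Ltbp2, Syne4, Sfrp2, Wwp2 and Gpc6. The step does not take out marrow: Cd84, a leukocyte surface receptor, rose by 2.40 ± 0.21, Ccl9, a chemokine of osteoclasts and myeloid cells, by 2.14 ± 0.14, Gpr137b, a lysosomal protein, by 2.16 ± 0.17 and Ckb, the creatine kinase used by osteoclasts, by 1.99 ± 0.16. Of the falls, Sox5, Ucma, Matn4, Cytl1 and Ecrg4 are on the cartilage lists, and their fall was -1.66 or larger in size in both fits. Fibrous tissue is not taken out either. No score was made for it, and 7 of the 23 tested markers of perichondrium, fibroblasts and tendon were called lower in this fit. The part of fibrous tissue in the 15 falls was not tested. Osteoblasts had no score either, and the vessel score was not used in this step. The part of osteoblasts and vessels in the 15 rises was not tested.

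**Figure D4:**
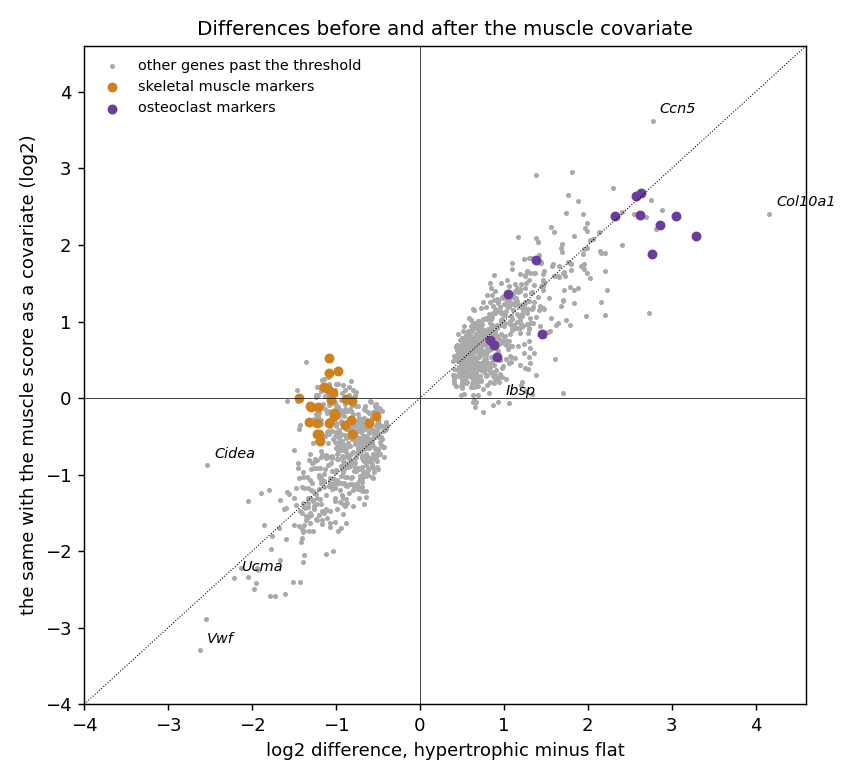
Log2 difference of each gene past the threshold (x axis) against the same difference with the muscle score as a covariate (y axis). The dotted line marks equal values. Skeletal muscle markers, which make up the score, move up towards 0 on the y axis, among them Myh8 to 0.0013, Ttn to -0.46 and Neb to -0.47. Osteoclast markers stay above 0, and Ucma and Vwf stay near or below the line.

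Ligands and inhibitors of Wnt signalling, which controls chondrocyte maturation and bone formation, changed in both directions. Of 38 tested genes 6 rose and 8 fell (median -0.231). Dkk1, a secreted blocker of the Wnt co-receptors, had 192, 316 and 54.0 in the flat and 773, 1093 and 624 in the hypertrophic layer. Its hypertrophic values were all higher, by 2.20 ± 0.32 (adjusted p = 0.000935). Frzb, a decoy receptor, rose by 1.09 ± 0.18 along with Wif1. The decoy receptor Sfrp2, by contrast, fell from 780.0, 1465 and 1357 to 266, 369 and 412 (-1.68 ± 0.14), and Dkk2 fell by 1.302 ± 0.20. Ror1, a receptor for Wnt5a-type ligands, fell by 1.39 ± 0.21. The 8 falls were 3 without the hypertrophic array of litter 1 or 2, 4 without the flat array of litter 1, and 5 without the flat array of litter 2 or the hypertrophic array of litter 3. Dkk1 is an osteoblast marker as well.

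Of 45 tested BMP and TGF-beta genes, 8 rose and 11 fell (median 0.023). Among ligands Bmp2, an inducer of chondrocyte maturation, rose from 1697, 1137 and 950.2 to 3389.9, 3893 and 2457 without overlap (1.36 ± 0.16, adjusted p = 0.000207). Bmp8a rose by 1.71 ± 0.32 and Tgfb1 by 1.20 ± 0.16. The receptor Tgfbr1 rose by 0.72 ± 0.14, and Id3, a direct target of BMP signals, by 0.78 ± 0.15. Among the falls were those of Ltbp1, which holds latent TGF-beta in the matrix, by 0.99 ± 0.17, Ltbp2 by 1.76 ± 0.19 and Smoc2 by 0.94 ± 0.13. The rises were 5 without the hypertrophic array of litter 1. The falls were 3 without the flat array of litter 1, 5 without the hypertrophic array of litter 2, 6 without that of litter 1 or 3 and 7 without the flat array of litter 2.

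Some growth factor genes that act on dividing chondrocytes fell. Of 23 tested IGF and growth hormone genes 6 fell and 1 rose (median -0.327). Igf1 went from 10576, 9295 and 8861 to 3949, 5616 and 4082, without overlap (-1.08 ± 0.14, adjusted p = 0.000431). The growth hormone receptor Ghr fell by 0.67 ± 0.13 and the binding protein Igfbp5 by 0.85 ± 0.16. Igfbp2 was 1.09 ± 0.22 lower (adjusted p = 0.00692, and 0.058 without the hypertrophic array of litter 1). Pappa, the protease that frees IGF from its binding proteins, rose from 344, 256 and 184 to 1205, 1091 and 632 (1.79 ± 0.18, adjusted p = 9.12e-05). The 6 falls were 3 without the hypertrophic array of litter 1. With the muscle score as a covariate Pappa was called again (adjusted p = 0.0333). Igf1, Ghr, Igfbp5 and Igfbp2 were not (adjusted p from 0.086 for Igf1 to 0.546 for Igfbp2), and the part of muscle and fibrous tissue in their falls was not tested.

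In the FGF pathway 2 of 18 genes rose and 4 fell (median -0.24). Fgf18, which restrains chondrocyte growth from the perichondrium, fell from 601, 408 and 364 to 275, 182 and 97.4 (-1.26 ± 0.21), and the receptor-like Fgfrl1 fell by 0.78 ± 0.13. Fgfr4 was 1.20 ± 0.24 lower (390.2, 512 and 1135 against 173, 168 and 529.6, highest in litter 3 in both layers), with adjusted p = 0.00761 and 0.0509 without the hypertrophic array of litter 1. Dusp4, a phosphatase that damps the ERK kinases, was 1.74 ± 0.34 higher, with adjusted p = 0.00661 and 0.0591 without the hypertrophic array of litter 2. The falls were 2 without the hypertrophic array of litter 1, and the rises 0 and 1 without the hypertrophic arrays of litters 2 and 3. With the muscle score as a covariate the falls went from 4 to 1 and the rises from 2 to 0. Fgf18, Fgfrl1, Fgfr4 and Dusp4 were not called in that fit (adjusted p = 0.26, 0.233, 0.538 and 0.0622). The part of muscle in these changes was not tested.

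Of 15 hedgehog pathway genes 1 rose and 3 fell (median -0.111), and the falls were 1 without the flat array of litter 1 or the hypertrophic array of litter 2 and the rise 0 without the hypertrophic array of litter 1 or 3. Cdon, a co-receptor for the ligand, fell from 1230.2, 1366 and 2171 to 459, 335 and 949.5 (-1.498 ± 0.25, adjusted p = 0.0023), with litter 3 highest in both layers. Boc, the related co-receptor, was 0.80 ± 0.16 lower, with an adjusted p up to 0.0648 without the flat array of litter 1 or the hypertrophic array of litter 2. Hhip, a target that traps the ligand, was 1.38 ± 0.31 higher, with an adjusted p up to 0.0849 without the hypertrophic array of litter 1 or 3. Ptch1, the receptor and a direct target, was not past the threshold (0.55 ± 0.22, adjusted p = 0.135). With the muscle score as a covariate Boc was called (adjusted p = 0.0274), and Cdon and Hhip were not (adjusted p = 0.143 and 0.779). Among 28 genes of PTHrP and cAMP signalling 2 were higher, Pth1r and the adenylyl cyclase Adcy3 (0.70 ± 0.14, adjusted p = 0.00611), and 1 lower, the G protein subunit Gnas (-0.50 ± 0.12, adjusted p = 0.0197). These counts, like the 1 hedgehog rise, are near the shares over all tested genes (6.12% higher, 5.22% lower). Adcy3 lost its call without the hypertrophic array of litter 2 (adjusted p = 0.0528), and Gnas without the flat array of litter 1 or 2 or any hypertrophic array (up to 0.114). The rises were 1 without the flat array of litter 3 or any hypertrophic array. The fall count was 0 without the flat array of litter 1 or any hypertrophic array, and 2 without the flat or the round array of litter 3.

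Signals that draw osteoclasts and vessels were mixed, 8 of 29 higher and 5 lower (median 0.114). The osteoclast-inducing ligands Tnfsf11 (RANKL) and Csf1 were 1.02 ± 0.20 and 0.87 ± 0.17 higher, with adjusted p = 0.0068 and 0.00611, or 0.0667 and 0.0562 without the hypertrophic array of litter 1. Tnfrsf11b, the decoy osteoprotegerin, was not past the threshold (1.02 ± 0.35, adjusted p = 0.0894). Sema4d, which osteoclasts release, rose by 1.47 ± 0.21, the guidance cue Slit2 from 681, 655 and 649 to 1605, 1821 and 1526 (1.28 ± 0.15) and the vessel ligand Angpt1 by 1.08 ± 0.20. The chemokine Cxcl14 fell by 1.18 ± 0.20. Cnmd, chondromodulin, which keeps cartilage free of vessels, was 1.07 ± 0.24 lower (adjusted p = 0.0129, and up to 0.0934 without the array of either layer of litter 2). Without either of these arrays the count of falls was 3.

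Of 40 transcription factor genes 6 rose and 10 fell (median -0.054). The Iroquois factors Irx5 and Irx3 rose, Irx5 from 499, 538 and 250.3 to 1878, 1978 and 1318 (1.99 ± 0.20, adjusted p = 7.8e-05) and Irx3 from 338, 444 and 329 to 1304, 1445 and 1286 (1.80 ± 0.19, adjusted p = 0.000118). In both genes every hypertrophic value was above every flat value, and they stayed past the threshold with the muscle score (adjusted p = 0.03 for Irx5 and 0.0265 for Irx3). Cebpb, a factor of stress and maturation in chondrocytes, rose by 1.09 ± 0.18. Pitx1, the hind limb factor, fell from 1192, 1440.5 and 634 to 586, 431 and 234 (-1.34 ± 0.17), and Foxp2, Zfp521 and Nfia fell by 1.02 ± 0.14, 0.88 ± 0.15 and 0.88 ± 0.13. The 10 falls were 5 without the flat array of litter 1 and 6 without the hypertrophic array of litter 1.

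Few cell cycle genes passed the threshold. Of 30 tested S phase genes 0 rose and 1 fell (median -0.046), and of 30 mitotic genes limma called 0 (median 0.056), with 2 higher and 1 lower at an unadjusted p under 0.05. Over all 11313 tested genes 2782 were under that p. Mki67, the proliferation antigen, had 4228, 5201 and 4959.6 in the flat and 4053, 4137 and 4696 in the hypertrophic layer, with overlap (-0.16 ± 0.12, adjusted p = 0.478). The S phase gene that fell, the DNA polymerase Pole, was 0.88 ± 0.21 lower, with an adjusted p up to 0.13, without the hypertrophic array of litter 2, and over the threshold also without the flat array of litter 1 or 2 or the hypertrophic array of litter 3. Among CDK inhibitors Cdkn1c fell, as given above, and Cdkn1a, p21, was 0.47 ± 0.12 higher (adjusted p up to 0.157 without the flat array of litter 1, and lost without the flat array of litter 3 or any hypertrophic array too). Dividing marrow cells also carry these transcripts, and their part was not tested.

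In the energy and secretion lists few calls held in each omission. Of 37 hypoxia and glycolysis genes 8 were higher and 1 lower (median 0.133), the latter count being 0 in 8 of the 9 omissions. Ddit4, which restrains mTOR under low oxygen, went from 568, 1477 and 1402 to 2380.1, 3371 and 2373 (1.31 ± 0.21, adjusted p = 0.00204). It was the list member whose call held in each omission. P4ha1, a collagen prolyl hydroxylase, was 0.79 ± 0.16 higher (adjusted p up to 0.0653 without the hypertrophic array of litter 1, and lost without that of litter 3). The 8 were 1 without the hypertrophic array of litter 1 or 3, 2 without the flat array of litter 1, 3 without the hypertrophic array of litter 2, 4 without the flat array of litter 3, and 5 without the flat or the round array of litter 2. Of 34 oxidative phosphorylation genes limma called 0 (median -0.085), with 0 higher and 5 lower at an unadjusted p under 0.05. Of 32 genes of the secretory pathway and ER stress 5 were higher and 0 lower (median 0.199), and the 5 were 0 without the flat or the hypertrophic array of litter 3, 1 without the hypertrophic array of litter 1 or 2 and 2 without the flat array of litter 1. In cholesterol synthesis 1 of 20 was higher, near the 6.12% of all tested genes. It was Insig2, which holds the pathway in check (0.93 ± 0.19, and adjusted p = 0.0653 without the hypertrophic array of litter 1).

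Of 24 genes of glycosaminoglycan synthesis 3 were higher and 1 fell (median 0.131). The fall was Hs6st2, a heparan sulfate sulfotransferase, from 1218, 1271 and 1948 to 564, 744 and 785 (-1.04 ± 0.15, adjusted p = 0.000935), and the 3 rises were 0 without the hypertrophic array of litter 2 or 3 and 1 without the flat array of litter 1. Among 30 genes of ion and solute transport 7 rose and 2 were lower (median 0.198). Besides Panx3 and Slc13a5 the rises included the bicarbonate exchanger Slc4a2 (0.91 ± 0.17), the sodium and calcium exchanger Slc8a3 (0.81 ± 0.15) and the chloride carrier Clcn7 (1.05 ± 0.17). Slc4a2 and Clcn7 serve acid secretion by osteoclasts too. The 2 lower genes were 0 without the flat array of litter 1 or the hypertrophic array of litter 2, and 1 without that of litter 1 or 3. Of 21 survival and death genes 3 were higher and 0 lower (median 0.203), and the 3 were 0 without the array of either layer of litter 1 or the hypertrophic array of litter 3, and 1 without the other 3 arrays of the comparison.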

How the data were processed

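RNA of hand-dissected growth plate layers was hybridised to Affymetrix mouse arrays, per the labels' protocols. The authors deposited 1 table of MAS5 signal intensity for 45101 probe sets on 9 arrays, made with Affymetrix Expression Console and MAS5 per the submitters' processing notes (version not given in the sources used here). Every deposited intensity column has the same 2%-trimmed mean, 500.003, so arrays were already scaled, and no further normalisation was applied. Identical arrays numbered 0.

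There are 64 control probe sets, while 34945 name 1 gene, 932 several and 9160 none in the annotation used, and 34741 were matched to RefSeq by gene ID. Signals became log2(signal + 26), 26 being the 20th percentile, which understates changes of dim genes. The brightest single-gene probe set on average stood for a gene, and genes with a mean above 7.212 (log2) were tested. Rapgef6 alone had probe sets called in opposite directions. limma 3.58.1 (R 4.3.3; lmFit, eBayes with trend) was fitted on all 9 arrays with layer and a litter block (residual degrees of freedom 4, prior 8.15, median standard error 0.179), Benjamini-Hochberg over 11313 genes. It was tested on simulated data. Replicate numbers were taken to mark litters. The labels give 1 litter per sample and 3 litters in all, and the titles give the replicate number alone. Across genes the deviations of flat and hypertrophic arrays correlated at 0.175 to 0.517 within litters so read (3 pairs) and -0.434 to 0.081 between them (6).

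Named genes are the 15 largest rises and falls, the same among genes on no other-cell list that were also called with the muscle score, members of 40 lists (902 genes, of which 836 had a single-gene probe set under that symbol in the annotation used; known markers among the others, such as Runx2, Spp1 and Bglap, are not analysed here), genes that check the layers, and those said to be picked later. The rule first asked for calls with the marrow and vessel scores too, which left 0 genes, so the muscle score alone was chosen after seeing the data. The members and lists were chosen with earlier results of these data known. Detection calls and scan images were not used here.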

Additional observations from a re-analysis of the deposited data

How the results depend on the processing

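Over the alternatives to pseudocount, filter, scaling and probe set choice the number of genes that rose stayed between 483 and 838 and of genes that fell between 422 and 599. With the mean of all single-gene probe sets of a gene, 142 of the 164 called genes named in the text were called again. The other 22 lost their call, and 0 changed sign. Both counts moved over 1.5 times with no replicate block (356 higher, 197 lower), array weights (1128 and 1029), the muscle score as a covariate (144 and 150), the vessel score (17 and 19) and the marrow score (0 and 0). Leaving out 1 array gave 336 to 879 rises and 255 to 779 falls. Without the whole of litter 1, 2 or 3 there were 387, 309 and 361 rises and 322, 295 and 363 falls. The litter block rests on reading the replicate number in the labels as the litter. Without the replicate block 356 of the 692 rises and 197 of the 591 falls were called. Of the 164 called genes named in the text 130 were then called and 34 were not (Omd, Ibsp, Alpl, Wnt4, Pth1r, Mmp14, Sox9, Col11a2, Dcx, Hsd11b2, Sod3, S100a8, S100a9, Pf4, Gp1bb, Myh11, Myh8, Ttn, Ryr1, Actn2, Neb, Casq1, Kera, Ngfr, Id3, Fgf18, Fgfrl1, Fgfr4, Cnmd, Pitx1, Pole, Cdkn1a, Ddit4 and P4ha1), and 0 of the 164 changed sign. List counts that then moved over 1.5 times included endothelial rises (14 to 8), hypoxia rises (8 to 0), secretory pathway rises (5 to 0), survival gene rises (3 to 0), FGF falls (4 to 0) and BMP falls (11 to 6).

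Signs turned chiefly with the marrow score, which layer and litter set almost fully, where the values were Col10a1 -0.097, Mmp13 -0.65, Ifitm5 -0.84, Ibsp -1.92, Panx3 -1.18, Bmp6 -0.95, Cdkn1c 0.20, Pth1r -0.18, Sp7 -1.50, Mmp16 -0.52, Fam167b -0.74, Lat -1.61, Wif1 -1.004, Col11a2 -0.62, Cidea 2.02, Dcx 0.73, Hsd11b2 0.52, Sod3 0.095, Ocstamp -0.82, Dcstamp -0.82, Ctsk -0.48, Car2 -0.33, Cd68 -0.88, Ptprc -0.52, Alas2 -0.45, S100a8 -0.20, S100a9 -0.083, Pf4 0.23, Myh8 0.95, Ttn 0.17, Ryr1 1.45, Actn2 0.85, Neb 0.27, Casq1 1.01, Kera 0.12, Ngfr 0.30, Hhip -2.07, Id3 -0.53, Igfbp2 1.04, Fgfr4 1.31, Cdon 0.96, Ptch1 -2.08, Csf1 -0.35, Tnfrsf11b -1.03, Sema4d -0.046, P4ha1 -0.37 and Insig2 -0.62. With the muscle score the values were Ibsp -0.056, Col1a1 0.029, Sp7 -0.037, Alas2 -0.016, S100a9 -0.022, Myh8 0.0013 and Ptch1 -0.10, and with the vessel score Sp7 -0.12, Col11a2 -0.43, Alas2 -0.21, Ngfr 0.12, Hhip -0.049, Ptch1 -0.14 and P4ha1 -0.00028. The other turns were in genes that were not called. Averaging all probe sets of a gene gave Col1a1 0.11 and Col1a2 0.078, and quantile normalisation 0.035 and 0.043. For Acan median centring gave 0.030 and array weights 0.033. The ranges with 1 array left out, or the pair added later, were Col1a1 -0.32 to 0.017, Col1a2 -0.45 to 0.014, Col2a1 -0.41 to 0.063, Acan -0.24 to 0.22 and Adgre1 -0.19 to 0.054. Acan was 0.078 without the hypertrophic array of litter 2. Without the whole of litter 2 Col2a1 was 0.046 and Acan 0.21, and without litter 1 Adgre1 was 0.0089. The cause of these turns was not tested. Chosen after seeing the data were the joint omission of the round library of litter 1 and the flat library of litter 3, the muscle score alone in the rule for named genes and the search for TATAAA. With 3 litters, differences near the median standard error of 0.179 were not detectable.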
